A study of Mus musculus with 10 samples.

Results

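The 9 genes described here help to place B cells within lymphoid tissue by reading sphingosine 1-phosphate, oxysterols and related lipids. They are the sphingosine 1-phosphate receptors S1pr1, S1pr2, S1pr3 and S1pr4, the oxysterol receptor Gpr183, the lipid receptors Gpr174, P2ry10 and Gpr18, and Gna13, the G protein subunit that carries part of their signal. The genes were chosen by name, not by a threshold on their values, but with earlier results of these data known. They make up 9 of the 30205 genes to which transcripts were matched. All 9 passed the filter on low counts, which left 15583 genes for testing.

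RNA sequencing was read from 10 libraries of B lineage cells sorted by flow cytometry from C57BL/6 mice, in 5 groups of 2, to ask what joint NF-kB and Notch activation does to B cell development and transformation. NF-kB-activated libraries were lymph node B cells, labelled as marginal zone precursors, carrying Rosa-NIKdeltaT3flSTOP and CD19Cre, which switches on a NIK lacking its TRAF3 contact. Notch-labelled libraries carried Rosa-Notch2ICN, the intracellular part of Notch2, with CD19Cre, and are labelled as marginal zone B cells of the lymph node. Doubly activated libraries were precursor cells of the lymph node with both Rosa alleles and CD19Cre. Lymphoma libraries were lymphoma cells from lymphoma tissue with the same 3 alleles. Control libraries were wild-type precursor cells of the lymph node, with no CD19Cre named in their label. CD19Cre acts in B lineage cells only, and the labels give no age. Since they do not state that a group's pair of libraries represents separate animals, p-values cover only the variation seen between libraries, which may be technical. All groups other than lymphoma are labelled pre-malignant.

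Depth was 16380889 to 23102081 estimated counts per library, and all expression levels below are CPM scaled with TMM unless TPM is named. Map3k14, which encodes NIK, was at 220 and 217 CPM in NF-kB-activated libraries and at 244 and 255 in doubly activated libraries, against 103 and 130 in controls. Notch2 went against the labels of the Notch-labelled and lymphoma libraries, at 284 and 278 CPM in the former and 154.7 and 178.5 in the latter, against 652 and 690 in controls. In doubly activated libraries Notch2 was at 702 and 753 CPM. The Notch target Heyl was at 50.9 and 44.1 CPM in Notch-labelled, 38.9 and 44.0 in lymphoma and 23.3 and 25.6 in doubly activated libraries, against 0.431 and 0.381 in controls. The Notch-labelled and the lymphoma libraries also stood apart in other ways. A single immunoglobulin V segment held 90.8% to 94.1% of its class in those libraries, the same segment in both libraries of a group, and at most 7.3% in the others. Whether both libraries of such a group came from a single clone or animal was not tested. Their p-values may thus describe a single clone per group. Across genes, log2 CPM correlated at 0.865 to 0.892 between Notch-labelled libraries and all others, at 0.912 to 0.925 between lymphoma and the precursor groups, and at 0.968 to 0.983 between precursor groups (genes are not independent replicates).

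Cell type markers differed between these groups, and the macrophage list also differed widely within controls. Macrophage markers (10 genes) summed to 50.98 CPM in the lower and 211.4 in the higher control library. Their sums were 150.7 to 211.9 CPM in NF-kB-activated, 65.81 to 68.37 in Notch-labelled, 24.14 to 49.17 in doubly activated and 84.24 to 86.1 in lymphoma libraries. Of the lymphoma sum Cd68 averaged 60.6 CPM, against 10.05 in controls. Against control 0, 0, 0 and 1 of the 10 rose in those groups, in that order, and 0, 4, 3 and 6 fell. The 8 B cell markers summed to 3547 to 3796 CPM in Notch-labelled and 5862 to 6104 in lymphoma libraries, against 9577 to 9721 in controls, with all 8 above 1 CPM in every library. Of 13 stromal and endothelial markers, 9 were above 1 CPM in both Notch-labelled libraries, and the list summed to 877.6 to 1097 CPM there against 307.1 to 315.1 in controls. Of this sum Col1a2 was at 391 and 534 CPM in Notch-labelled libraries against 0.615 and 0.870 in controls, while Emcn and Lyve1 were at 0 in both groups. The 7 follicular B cell markers summed to 341.4 to 348.3 CPM in Notch-labelled and 415 to 430.8 in lymphoma libraries, against 3216 to 4086 in controls. Of 10 marginal zone B cell markers, S1pr3 among them, 4 rose and 2 fell in NF-kB-activated, 7 rose and 1 fell in Notch-labelled, 7 rose and 0 fell in doubly activated, and 6 rose and 2 fell in lymphoma cells against control. Beside this and the other marker counts, 15.3%, 63.7%, 19.8% and 53.4% of all genes were called in those groups, in that order. The list summed to 6295 to 6826 CPM in doubly activated libraries against 3447 to 4776 in controls. Cr2, a high marker of these cells, went the other way from most of the list in 2 groups, at 111 and 110 CPM in Notch-labelled and 28.5 and 23.3 in lymphoma libraries, against 2899 and 1874 in controls. Cd9 was at 144 and 138 CPM in Notch-labelled and 256 and 232 in lymphoma libraries, against 35.85 and 25.02 in controls. The T cell list (10 markers) summed to 192.3 to 212.8 CPM in lymphoma libraries against 40.04 to 44.06 in controls, of which Cd8b1 alone gave 181 and 162 CPM in lymphoma. Against control, 2 of the 10 rose and 6 fell in lymphoma cells. The list summed to 102.1 to 102.9 CPM in Notch-labelled libraries, where 5 rose and 1 fell. The 6 plasma cell markers summed to 587.4 to 723 CPM in doubly activated and 1940 to 2083 in lymphoma libraries, against 349.9 to 366.2 in controls. In Notch-labelled libraries they summed to 690.2 to 731.8 CPM. Of the 5 tested, 2 rose and 1 fell in doubly activated cells, and 3 rose and 0 fell in lymphoma, against control. In Notch-labelled cells 3 rose and 1 fell. In doubly activated libraries Irf4 averaged 496 CPM against 220 in controls, and Prdm1 18.95 against 3.9. Xbp1 fell there to 72.4 CPM from 88.4, and Sdc1, not called, was at 2.22 against 6.07. Neutrophil markers (10 genes) summed to 128.5 to 438.3 CPM in NF-kB-activated and 69.97 to 70.47 in Notch-labelled libraries, against 0.615 to 17.14 in controls, and 7 and 5 of them rose. Dendritic cell markers (8 genes) summed to 64.69 to 68.41 CPM in NF-kB-activated, 46.97 to 48.55 in doubly activated and 115 to 123.5 in lymphoma libraries, against 12.48 to 26.66 in controls. Of these sums Zbtb46 averaged 40.7 CPM in NF-kB-activated and 28.8 in doubly activated libraries, against 2.38 in controls. Itgax averaged 90.6 CPM in lymphoma libraries against 6.87 in controls. Against control 2, 1 and 2 of the 8 rose in those groups, and 0, 0 and 1 fell. The part of these other cells in the differences reported here was not tested, and in bulk RNA fewer cells of a type and less RNA per cell cannot be told apart.

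Sphingosine 1-phosphate is abundant in blood and lymph and scarce inside lymphoid tissue, and lymphocytes leave tissue up this gradient. S1pr1 couples to Gi and drives that exit and, in the mouse spleen, holds marginal zone B cells near the blood-filled sinus, where S1pr3 is also expressed. S1pr2 couples to Gna13 and opposes migration, which keeps germinal centre B cells clustered. Gpr183, also known as EBI2, draws activated B cells towards dihydroxycholesterol made by the enzymes Ch25h and Cyp7b1 in stromal cells. P2ry10 and Gpr174 respond to lysophosphatidylserine, and Gpr18 is a lymphocyte receptor whose ligand is disputed.

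On GRCm38, with positions counted from 1 in GENCODE M21, S1pr1 (ENSMUSG00000045092) spans 115710433 to 115715072 of chromosome 3 on the minus strand. S1pr2 (ENSMUSG00000043895) spans 20962361 to 20976781 of chromosome 9, minus strand, S1pr3 (ENSMUSG00000067586) 51408639 to 51422797 of chromosome 13, plus strand, and S1pr4 (ENSMUSG00000044199) 81497747 to 81500132 of chromosome 10, minus strand. Gna13 (ENSMUSG00000020611) lies at 109362831 to 109401369 of chromosome 11 on the plus strand. The other 4 genes form 2 neighbourhoods. Gpr18 (ENSMUSG00000050350, 121911253 to 121915781) and Gpr183 (ENSMUSG00000051212, 121952551 to 121965195) are both on the minus strand of chromosome 14, 36.8 kb apart with 0 protein-coding genes between them, and both lie inside Ubac2 on the opposite strand. P2ry10 (ENSMUSG00000050921, 107088492 to 107104974) and Gpr174 (ENSMUSG00000073008, 107255878 to 107296769) are on the plus strand of chromosome X, 150.9 kb apart with P2ry10b between them. All 9 are annotated as protein coding, and the levels of the neighbours on chromosome 14 had different orders over the groups.

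S1pr3 and Gpr183 were the 2 of the 9 genes that rose in doubly activated cells, and the 250 bases before their start sites are shown for that reason, from RefSeq on GRCm38.p6, 5′ to 3′ on the strand of the gene. The S1pr3 window is chr13:51408368-51408617 (plus strand) and the Gpr183 window chr14:121965194-121965443 (minus strand). Capitals mark the core motif of RBPJ, the DNA partner of Notch, searched as TGGGAA and its reverse complement TTCCCA on both strands.
S1pr3: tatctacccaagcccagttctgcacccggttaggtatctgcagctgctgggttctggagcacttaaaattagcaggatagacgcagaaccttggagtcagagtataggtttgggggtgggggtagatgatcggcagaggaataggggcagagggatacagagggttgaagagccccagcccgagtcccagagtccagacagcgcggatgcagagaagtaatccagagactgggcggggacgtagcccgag
Gpr183: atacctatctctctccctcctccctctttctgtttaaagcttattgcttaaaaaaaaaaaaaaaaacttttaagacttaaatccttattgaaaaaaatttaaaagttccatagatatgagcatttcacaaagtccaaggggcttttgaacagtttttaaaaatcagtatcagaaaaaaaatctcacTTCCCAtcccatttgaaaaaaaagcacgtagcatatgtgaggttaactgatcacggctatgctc
The Gpr183 window held the core once, starting 64 bases before the gene's start, and the S1pr3 window held none. Of the 8 genes with a RefSeq window (S1pr1 was not matched), 1 held the RBPJ core and 0 held the NF-kB motif, which can share bases with that core. Among 32851 promoter windows of the same length, 21.6% held the RBPJ core and 3.9% the NF-kB motif. A match is a description of letters and not of binding.

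Per transcript length, S1pr1 was the most abundant of the 9 in 3 groups and Gpr18 in the other 2. In TPM, S1pr1 averaged 168 ± 8.13 in Notch-labelled, 155 ± 4.26 in doubly activated and 189 ± 15 in control libraries (SD, n = 2 each), and took 47.5%, 27.1% and 28.8% of the TPM of the 9 genes. Gpr18 led with 141 ± 11.3 TPM in NF-kB-activated and 134 ± 4.9 TPM in lymphoma libraries, where it held 24.8% and 45.4%. S1pr2 was lowest in NF-kB-activated, doubly activated and control libraries, at 0.690, 0.566 and 1.77 TPM. Gpr174 was lowest in Notch-labelled and lymphoma libraries, at 1.31 and 0.474 TPM, against 68.9 TPM in controls.

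**Figure D1:**
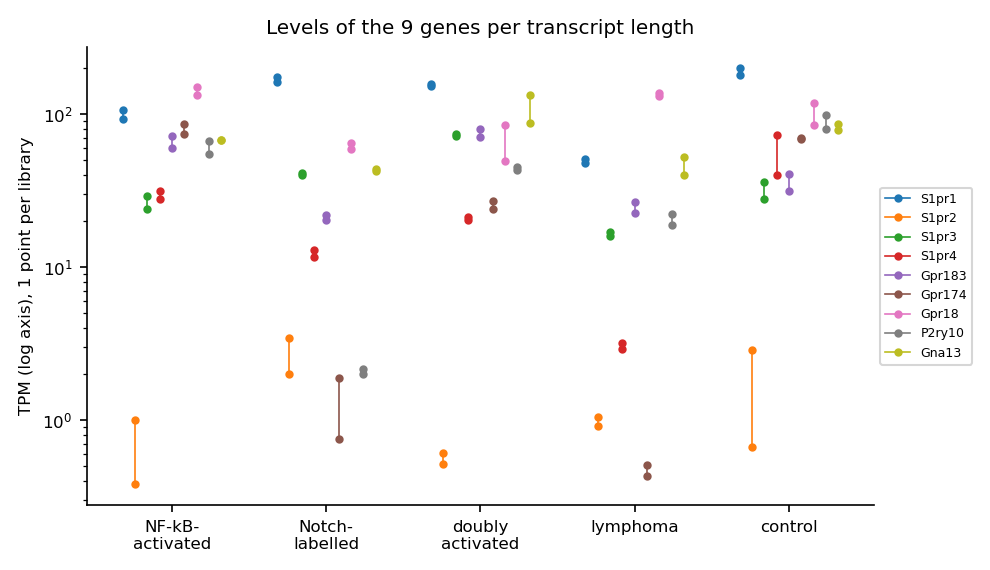
TPM of the 9 genes on a log axis, 1 point per library and a line joining the 2 libraries of a group. S1pr1 and Gpr18 sit at the top in every group but the doubly activated one, where Gna13 is second, and Gpr174 and P2ry10 drop to about the level of S1pr2 in Notch-labelled cells at 1.31 and 2.09 TPM.

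The 9 genes were tested in 8 comparisons with edgeR's quasi-likelihood test, called at an adjusted p (Benjamini-Hochberg over all 15583 genes) under 0.05. In NF-kB-activated against control cells 1 of the 9 rose and 3 fell, where 15.3% of all genes were called. In Notch-labelled against control cells 0 rose and 7 fell, with 63.7% of all genes called. That comparison called the majority of all genes, which puts its count for the 9, taken in either direction, close to the background. By direction, 5328 of all genes rose and 4594 fell. Doubly activated against control cells gave 2 rises and 4 falls, with 19.8% of all genes called. Doubly activated against NF-kB-activated cells gave 2 rises and 2 falls where 13.9% of all genes were called, and doubly activated against Notch-labelled cells gave 6 rises and 1 fall where 64.2% were called. The count against Notch-labelled cells, taken in either direction, is again close to its background, where 4822 of all genes rose and 5180 fell. Lymphoma against doubly activated cells gave 1 rise and 7 falls with 51.3% of all genes called, and lymphoma against control cells 1 rise and 6 falls with 53.4% called. The interaction of both alleles, the change with both set against the sum of the changes with each, was positive for 7 of the 9 and negative for 0 among those called, where 49.5% of all genes were called. These comparisons share control, doubly activated or lymphoma libraries and are not independent.

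The median log2 change of the 9 genes was -0.30 in NF-kB-activated, -0.84 in Notch-labelled and -0.49 in doubly activated cells against control, against medians over all genes of 0, 0.07 and 0. In lymphoma against doubly activated cells it was -1.46, against 0.01 over all genes. The 9 genes did not move as a block, since in each comparison with control other than the Notch-labelled one at least 1 rose while others fell. The libraries of the 2 groups did not overlap for 9 of 9 genes in lymphoma against doubly activated cells, where 74.6% of all genes did not overlap, and for 7 of 9 in doubly activated against control cells, where 55.3% did not.

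**Figure D2:**
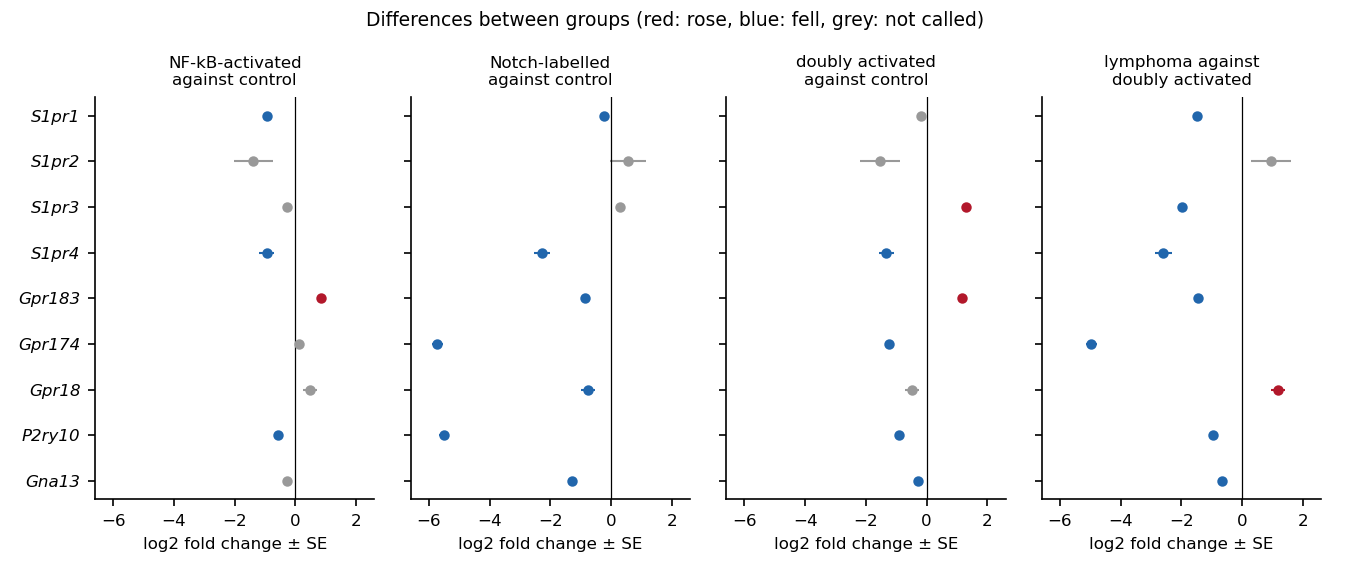
Log2 fold change with its standard error for the 9 genes in 4 comparisons, red where a gene rose, blue where it fell and grey where it was not called. Gpr174 and P2ry10 lie near -5.72 and -5.51 in Notch-labelled cells, S1pr3 and Gpr183 are the red points in doubly activated cells, and Gpr18 is the red point in lymphoma.

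**Figure D3:**
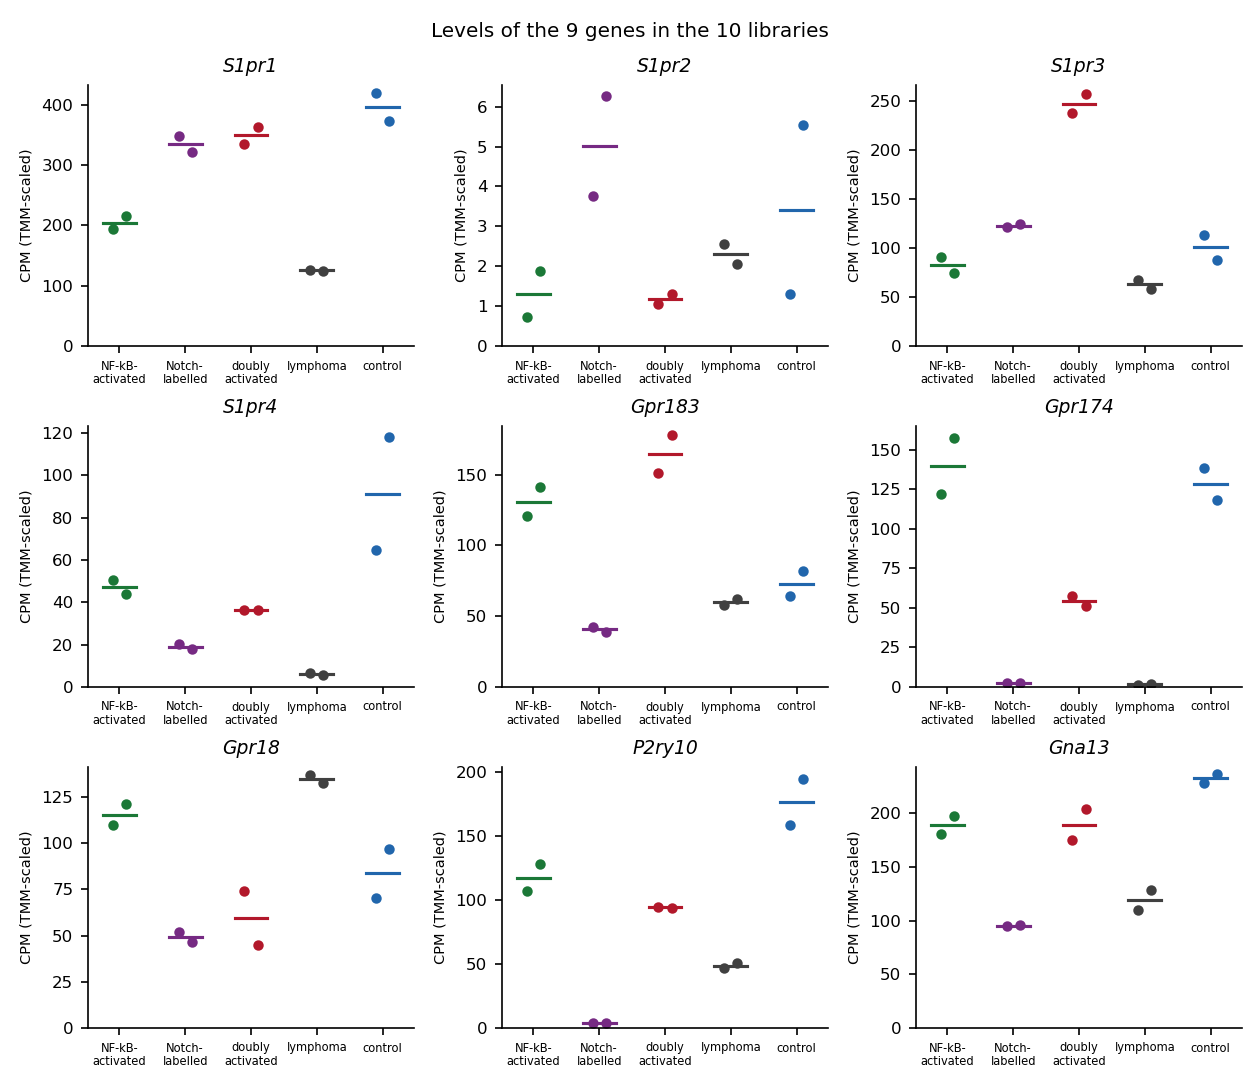
CPM of each gene in every library (points) with the group mean (line), groups from left to right NF-kB-activated, Notch-labelled, doubly activated, lymphoma and control. Each panel has its own axis from 0, so levels are compared within a gene.

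S1pr1, the exit receptor, was lower with the NIK allele alone and in lymphoma. It was at 194 and 216 CPM in NF-kB-activated libraries, 349 and 321 in the Notch-labelled, 335 and 364 in the doubly activated, 127 and 124 in lymphoma, and 419 and 373 in control libraries. Controls were highest and lymphoma lowest, the doubly activated and Notch-labelled libraries overlapped, and no other neighbours in that order did. S1pr1 fell in NF-kB-activated against control cells (log2 fold change -0.95 ± 0.089 SE, adjusted p = 1.75e-05). In doubly activated cells, which carry the same NIK allele, the difference from control was -0.18 ± 0.088 and was not called (adjusted p = 0.184), and S1pr1 was higher there than in NF-kB-activated cells (0.77 ± 0.089, adjusted p = 0.000206). The doubly activated level thus lay near that of the Notch-labelled libraries and apart from that with the NIK allele alone. In lymphoma the fall was -1.48 ± 0.091 against doubly activated cells (adjusted p = 5.8e-08). In Notch-labelled cells the change was small, -0.24 ± 0.088 (adjusted p = 0.031), and without control library 1, without Notch-labelled library 2 or without TMM scaling it was -0.16, -0.18 and -0.13 and was not called.

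S1pr3, a receptor of marginal zone B cells in mice, was highest in doubly activated libraries and lowest in lymphoma, which carries the same alleles. Its levels were 91.0 and 74.1 CPM in the NF-kB-activated, 121 and 124 in the Notch-labelled, 238 and 257 in the doubly activated, 67.6 and 58.1 in lymphoma, and 113 and 87.5 in control libraries. Both doubly activated libraries were above every other library, and NF-kB-activated and control libraries overlapped. The marginal zone marker list, which holds S1pr3, was also highest in summed CPM in doubly activated libraries, and its part in the difference was not tested. S1pr3 rose in doubly activated cells against control (log2 1.30 ± 0.132, adjusted p = 4.32e-05), against NF-kB-activated (1.58 ± 0.133, adjusted p = 3.9e-05) and against Notch-labelled cells (1.01 ± 0.131, adjusted p = 3.83e-05). Neither single group differed from control past the threshold, at -0.28 ± 0.132 with the NIK allele alone (adjusted p = 0.198) and 0.29 ± 0.131 in Notch-labelled cells (adjusted p = 0.0737). In lymphoma S1pr3 fell below doubly activated cells (-1.98 ± 0.135, adjusted p = 3.3e-07) and below control (-0.68 ± 0.133, adjusted p = 0.00123). The lincRNA Gm32834 overlaps it on the opposite strand, and since no source used here gives strandedness, reads of such pairs cannot be told apart.

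S1pr4, found mainly in blood-derived cells, was highest in controls and lowest in lymphoma. It was at 50.7 and 43.8 CPM in the NF-kB-activated, 20.2 and 17.9 in the Notch-labelled, 36.5 and 36.2 in the doubly activated, 6.57 and 5.47 in lymphoma, and 64.5 and 118 in control libraries. The 2 controls differed widely from each other, yet no group overlapped its neighbour. It fell in Notch-labelled (log2 -2.26 ± 0.261, adjusted p = 0.000108), doubly activated (-1.33 ± 0.251, adjusted p = 0.00787) and lymphoma cells (-3.92 ± 0.293, adjusted p = 1.03e-05) against control. The call in NF-kB-activated cells (-0.95 ± 0.246, adjusted p = 0.0373) was lost in 13 of the alternative settings, among them the fit of those 2 groups alone, the fit without the Notch-labelled libraries and the fits without any single library other than a control. For doubly activated cells against control it was lost in 3 settings, when either doubly activated library was left out or when the 2 groups were fitted alone (smallest size over all settings -0.83).

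S1pr2, the germinal centre receptor, was barely present. Its levels were 0.734 and 1.89 CPM in the NF-kB-activated, 3.75 and 6.28 in the Notch-labelled, 1.06 and 1.31 in the doubly activated, 2.54 and 2.05 in lymphoma, and 1.29 and 5.55 in control libraries. Control library 2 was well above library 1, within the range of the Notch-labelled libraries and above all the others. The germinal centre genes Nuggc and Gcsam were also higher in that library, at 3.05 and 2.50 CPM against 0.800 and 0.0615 in control library 1. Only the difference between doubly activated and Notch-labelled cells was called (log2 -2.08 ± 0.646, adjusted p = 0.0148), and it was lost without either doubly activated library or without Notch-labelled library 2 (smallest size over all settings -1.66).

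A list of 6 genes known to act on S1pr1 was set beside it, among them Klf2, which activates its transcription in mouse lymphocytes, and Cd69, whose protein pulls the receptor off the surface. In NF-kB-activated cells 0 of 6 were called, in Notch-labelled cells all 6 fell, in doubly activated cells 1 rose and 1 fell, and in lymphoma against doubly activated cells 5 fell. Of all genes, 15.3%, 63.7%, 19.8% and 51.3% were called in the same comparisons, in that order. Klf2 was at 91.8 and 77.4 CPM in the NF-kB-activated, 29.99 and 26.7 in the Notch-labelled, 222 and 419 in the doubly activated, 62.0 and 51.5 in lymphoma, and 173 and 288 in control libraries. It was thus below control in all libraries of 3 groups, while doubly activated and control libraries overlapped. Klf2 fell in lymphoma against doubly activated cells (log2 -2.50 ± 0.389, adjusted p = 0.00264), and its difference in NF-kB-activated cells was -1.45 ± 0.376 (adjusted p = 0.0569). Cd69 was at 29.9 and 34.9 CPM in the NF-kB-activated, 5.45 and 6.48 in the Notch-labelled, 132 and 199 in the doubly activated, 57.5 and 51.4 in lymphoma, and 53.7 and 39.2 in control libraries. Doubly activated libraries were the highest, and Cd69 rose there against control (1.83 ± 0.216, adjusted p = 0.000634). Foxo1, upstream of Klf2 in lymphocytes, averaged 40.7 CPM in Notch-labelled and 74.8 in lymphoma libraries against 272 in controls, and fell in both (-2.74 ± 0.099 and -1.86 ± 0.095, adjusted p = 7.79e-10 and 9.76e-09). In Notch-labelled cells, therefore, S1pr1 stayed within 0.24 log2 units of control where Klf2, Foxo1 and Cd69 all fell by over 2.7.

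**Figure D4:**
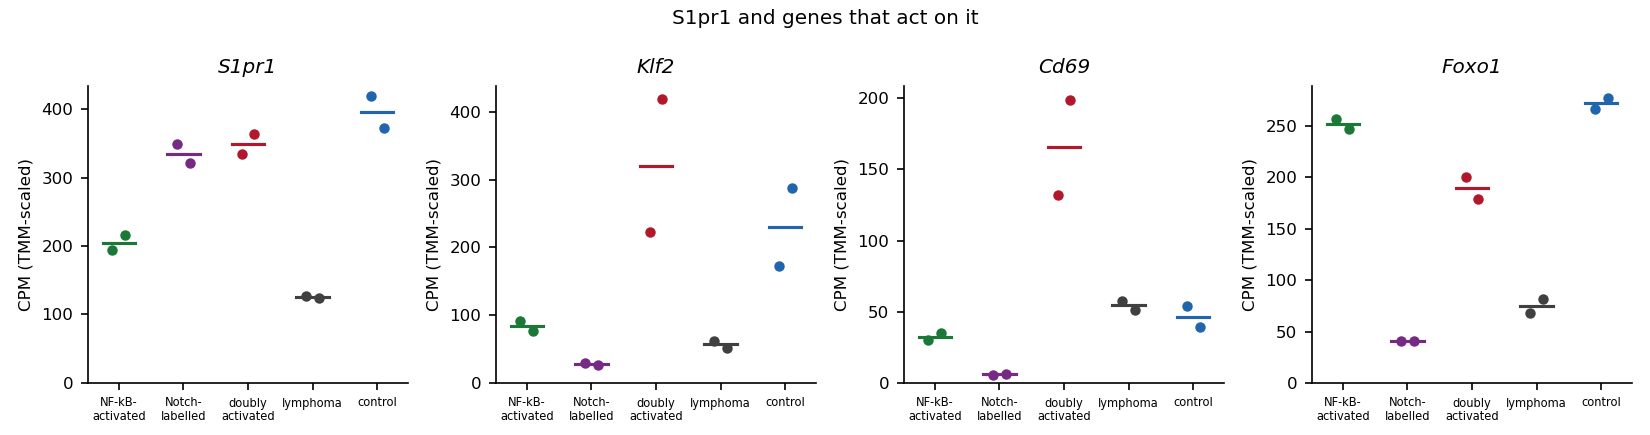
CPM of S1pr1 and of Klf2, Cd69 and Foxo1 in every library (points) with group means (lines). Notch-labelled libraries are low for Klf2, Cd69 and Foxo1 and near the doubly activated libraries for S1pr1, and Cd69 is highest in doubly activated libraries at 132 and 199 CPM.

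Among 15 genes that make, break down or export sphingosine 1-phosphate, 2 rose and 2 fell in NF-kB-activated cells, 2 rose and 4 fell in Notch-labelled cells, and 0 rose and 4 fell in doubly activated cells against control, and 6 rose and 3 fell in lymphoma against doubly activated cells. These comparisons called 15.3%, 63.7%, 19.8% and 51.3% of all genes, in that order. Spns2, an exporter of the lipid best known from endothelial cells, was at 8.75 and 9.01 CPM in the NF-kB-activated, 13.3 and 11.4 in the Notch-labelled, 4.73 and 5.89 in the doubly activated, 14.1 and 10.8 in lymphoma, and 28.8 and 47.2 in control libraries. Every activated or lymphoma library was below both controls, and it fell by 2.10, 1.62, 2.84 and 1.61 on the log2 scale in those 4 groups (adjusted p = 8.31e-05, 5.53e-05, 9.83e-06 and 8.09e-05). Sgpl1, the lyase that ends the lipid's life, was at 161 and 169 CPM in lymphoma libraries against 84.5 and 78.1 in doubly activated and 82.4 and 96.9 in control libraries. It rose in lymphoma (log2 1.02 ± 0.094 against doubly activated cells, adjusted p = 2.03e-06) and in NF-kB-activated cells (0.55 ± 0.093 against control, adjusted p = 0.00159). Sphk1, a kinase that makes the lipid, stayed between 0.851 and 2.40 CPM in all libraries and was not called against control in any group.

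Gpr183, the oxysterol receptor, was higher wherever the NIK allele was present in lymph node cells. It was at 121 and 141 CPM in the NF-kB-activated, 42.7 and 38.8 in the Notch-labelled, 151 and 178 in the doubly activated, 57.6 and 62.3 in lymphoma, and 64.1 and 81.9 in control libraries. No library overlapped a neighbouring group. Gpr183 rose in NF-kB-activated (log2 0.84 ± 0.127, adjusted p = 0.000788) and doubly activated cells (1.17 ± 0.128, adjusted p = 5.74e-05) and fell in Notch-labelled cells (-0.84 ± 0.130, adjusted p = 0.000138) against control. The further 0.33 ± 0.125 between doubly and NF-kB-activated cells was not called (adjusted p = 0.106). In lymphoma, which carries both alleles, it was lower than in doubly activated cells (-1.46 ± 0.128, adjusted p = 2.01e-06) and not called against control (-0.29 ± 0.128, adjusted p = 0.0816). Ubac2, which surrounds it on the other strand, varied less, between 40.0 and 66.5 CPM in all libraries.

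Of 4 enzymes around its ligand, 2 were expressed enough to test. Ch25h reached at most 0.05 CPM in 1 library and Cyp7b1 was at 0 in all 10, so these cells gave almost no message for the enzymes that make the ligand. Cyp27a1, a sterol hydroxylase, was at 8.28 and 10.1 CPM in the NF-kB-activated, 1.40 and 1.04 in the Notch-labelled, 13.98 and 12.4 in the doubly activated, 3.42 and 3.18 in lymphoma, and 20.9 and 28.9 in control libraries. It fell in all 4 groups against control, most in Notch-labelled cells (log2 -4.35 ± 0.254, adjusted p = 2.68e-08).

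Gpr174, a lysophosphatidylserine receptor on the X chromosome, had the largest ratio of highest to lowest library of the 9 genes. It was at 122 and 157 CPM in the NF-kB-activated, 2.40 and 2.47 in the Notch-labelled, 57.2 and 51.3 in the doubly activated, 1.53 and 1.96 in lymphoma, and 138 and 118 in control libraries. NF-kB-activated and control libraries overlapped, doubly activated libraries lay below both, and the last 2 groups were near the floor. It fell in Notch-labelled (log2 -5.72 ± 0.173, adjusted p = 4.5e-10) and doubly activated cells (-1.24 ± 0.126, adjusted p = 3.05e-05) against control, and in lymphoma against doubly activated cells (-4.96 ± 0.181, adjusted p = 1.17e-09). In NF-kB-activated cells the difference was 0.12 ± 0.122 (adjusted p = 0.585).

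P2ry10, its neighbour and a second receptor for that lipid, was at 107 and 128 CPM in the NF-kB-activated, 3.998 and 3.76 in the Notch-labelled, 94.3 and 93.9 in the doubly activated, 46.6 and 50.3 in lymphoma, and 158 and 195 in control libraries. No groups overlapped, and controls were highest. It fell in every group against control, with log2 fold changes of -0.59 ± 0.109 in NF-kB-activated (adjusted p = 0.0027), -5.51 ± 0.146 in Notch-labelled (adjusted p = 1.77e-10), -0.91 ± 0.110 in doubly activated (adjusted p = 1e-04) and -1.86 ± 0.113 in lymphoma cells (adjusted p = 4.19e-08). The pair therefore parted in lymphoma, where P2ry10 was still at 46.6 and 50.3 CPM and Gpr174 at 1.53 and 1.96. P2ry10 shares 5.77% of its 31-base words with P2ry10b, the gene between them. P2ry10b fell in all 4 groups too, from a lower level, with 22.1 and 22.2 CPM in the NF-kB-activated, 0.550 and 0.445 in the Notch-labelled, 11.7 and 12.9 in the doubly activated, 2.59 and 3.18 in lymphoma, and 29.4 and 33.0 in control libraries.

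Of 5 genes tied to these and related lipid ligands, 4 were tested, and 1 rose in NF-kB-activated, 0 in Notch-labelled and 1 in doubly activated cells against control, while 0, 1 and 1 fell. The share of all genes called was 15.3%, 63.7% and 19.8% in that order. Abcc1, a lipid and drug exporter, was at 184 and 180 CPM in NF-kB-activated and 184 and 196 in doubly activated libraries, against 81.1 and 69.8 in controls. The lymph node groups with the NIK allele were about level with each other and above every control, and Abcc1 rose in each (log2 1.27 ± 0.106 and 1.33 ± 0.107, adjusted p = 6.79e-06 and 4.05e-06). In lymphoma, which also carries that allele, it was at 86.8 and 108 CPM and fell against doubly activated cells (-0.96 ± 0.105, adjusted p = 8.99e-06).

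Gpr18, which sits beside Gpr183 on chromosome 14, was the one receptor of the 9 that rose in lymphoma. Its levels were 110 and 121 CPM in the NF-kB-activated, 51.8 and 46.4 in the Notch-labelled, 74.1 and 45.1 in the doubly activated, 137 and 132 in lymphoma, and 70.5 and 96.9 in control libraries. Lymphoma libraries were highest, NF-kB-activated ones next, and the doubly activated pair overlapped both control and Notch-labelled libraries. Gpr18 rose in lymphoma against doubly activated cells (log2 1.17 ± 0.233, adjusted p = 0.00409). The rise against control (0.68 ± 0.229, adjusted p = 0.0379) was lost in 11 settings, among them those without control library 1 or without any single lymphoma, NF-kB-activated or Notch-labelled library. The falls in Notch-labelled against control cells (-0.77 ± 0.234, adjusted p = 0.022) and in doubly activated against NF-kB-activated cells (-0.95 ± 0.233, adjusted p = 0.0368) were lost in 4 and 11 settings. For the Notch-labelled comparison these included leaving out control library 2 or either Notch-labelled library, and for the other one doubly activated library 2 or any single NF-kB-activated, Notch-labelled or lymphoma library.

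Gna13, the G protein alpha subunit that carries signals of S1pr2 and P2ry10, was at 181 and 198 CPM in the NF-kB-activated, 94.7 and 95.6 in the Notch-labelled, 175 and 204 in the doubly activated, 110 and 129 in lymphoma, and 229 and 237 in control libraries. Controls were highest, the doubly and NF-kB-activated libraries overlapped, and the Notch-labelled libraries were lowest. It fell in Notch-labelled (log2 -1.29 ± 0.098, adjusted p = 2.62e-07) and lymphoma cells (-0.96 ± 0.097, adjusted p = 4.14e-06) against control, and in lymphoma against doubly activated cells (-0.67 ± 0.097, adjusted p = 0.000104). In doubly activated against control cells the change of -0.30 ± 0.096 (adjusted p = 0.0491) was at the threshold, was lost in 10 settings (among them those without either control, either NF-kB-activated, either Notch-labelled or the first doubly activated library), and turned to 0.52, not called, with an offset for effective transcript length.

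Gna13 has 2 transcripts in the files, and their shares differed between groups. The short one, Gna13-202, held 8.66% and 6.42% of the gene's estimated counts in the NF-kB-activated, 13.5% and 11.8% in the Notch-labelled, 18.3% and 30.4% in the doubly activated, 14.03% and 14.9% in lymphoma, and 7.22% and 8.35% in control libraries. Doubly activated libraries were highest and were far apart from each other, and these shares are kallisto's own split of ambiguous reads and were not tested. The antisense gene Gm11696 overlaps Gna13 on the opposite strand.

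**Figure D5:**
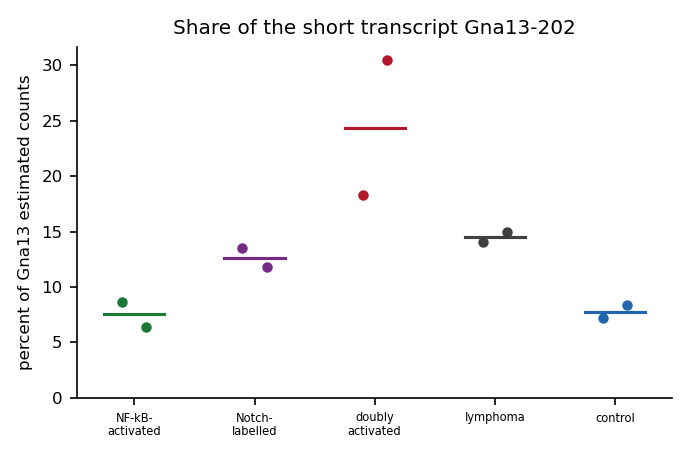
Share of the estimated counts of Gna13 given to its short transcript Gna13-202, in percent, per library (points) with group means (lines). The doubly activated libraries are highest at 18.3% and 30.4%, and the control and NF-kB-activated libraries are all under 9%.

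Downstream of these receptors, 18 G protein, cytoskeletal signalling and receptor-desensitising genes were tested. In NF-kB-activated cells 5 rose and 2 fell, in Notch-labelled cells 3 rose and 12 fell, in doubly activated cells 3 rose and 5 fell against control, and in lymphoma against doubly activated cells 3 rose and 8 fell. Over all genes 15.3%, 63.7%, 19.8% and 51.3% were called in those comparisons, in that order. Arhgef1, the guanine nucleotide exchange factor that Gna13 activates, was at 622 and 585 CPM in Notch-labelled and 575 and 543 in lymphoma libraries, against 1387 and 1518 in controls. Like Gna13, it fell in both (log2 -1.27 ± 0.080 and -1.38 ± 0.081, adjusted p = 5.6e-08 and 3.04e-08), and was not called in NF-kB-activated or doubly activated cells. Grk5, a kinase that desensitises receptors, averaged 27.0 CPM in NF-kB-activated, 21.8 in Notch-labelled, 41.6 in doubly activated and 37.4 in lymphoma libraries, against 11.8 in controls, and rose in all 4. Arrb1, an arrestin that follows it, fell in lymphoma to 13.6 CPM against 79.0 in controls (-2.54 ± 0.132, adjusted p = 1.14e-08). Gna12, the close relative of Gna13, rose in Notch-labelled cells (0.58 ± 0.125, adjusted p = 0.00141) where Gna13 fell, and fell in lymphoma against control (-0.65 ± 0.128, adjusted p = 0.000964).

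A list of 19 other receptors that position lymphocytes or sense related ligands was set beside the 9. Against control, 2 rose and 5 fell in NF-kB-activated, 2 rose and 11 fell in Notch-labelled, 2 rose and 5 fell in doubly activated, and 2 rose and 11 fell in lymphoma cells. The background of called genes was 15.3%, 63.7%, 19.8% and 53.4%, in that order. Ccr6, the receptor for Ccl20, was at 169 and 176 CPM in the NF-kB-activated, 1.40 and 0.742 in the Notch-labelled, 137 and 112 in the doubly activated, 0.139 and 0 in lymphoma, and 110 and 104 in control libraries. Like Gpr174, it was near or at 0 in the Notch-labelled and lymphoma libraries and above 50 CPM in every other. Gpr34, another lysophosphatidylserine receptor, was at 41.3 and 42.1 CPM in the NF-kB-activated, 0.450 and 0.445 in the Notch-labelled, 22.2 and 25.3 in the doubly activated, 38.6 and 37.0 in lymphoma, and 4.06 and 2.72 in control libraries. It rose in the 3 groups with the NIK allele (log2 3.63 ± 0.171, 2.81 ± 0.172 and 3.49 ± 0.171 against control, adjusted p = 5.03e-08, 4.44e-07 and 6.63e-09), so 1 receptor for that lipid rose where P2ry10 fell. Cxcr5, which leads B cells into follicles, fell to 108 and 99.6 CPM in Notch-labelled and 178 and 176 in lymphoma libraries, against 413 and 518 in controls (log2 -2.16 ± 0.160 and -1.40 ± 0.156, adjusted p = 1.55e-06 and 4.28e-05). Ptger4, a prostaglandin receptor, was highest in doubly activated libraries, as S1pr3 was, with 3.77 and 4.77 CPM in the NF-kB-activated, 13.04 and 14.98 in the Notch-labelled, 34.7 and 62.3 in the doubly activated, 1.99 and 1.81 in lymphoma, and 22.3 and 17.2 in control libraries.

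The genes most alike each of the 9 in pattern were found by Pearson r of log2(CPM + 1) over the 10 libraries, among 10847 genes. These correlations are descriptions, since the libraries form 5 groups of 2. Closest to S1pr1 were Kansl2 (r = 0.977), Pitpnm2 (0.976) and Ctdp1 (0.974), and closest to S1pr3 were Tmem206 (0.960) and Egr2 (0.956). Gpr183 was most alike Casz1 (0.991) and Nfkb2 (0.987), which encodes the NF-kB protein that NIK acts on and was at 619 CPM in NF-kB-activated, 206 in Notch-labelled, 668 in doubly activated, 296 in lymphoma and 322 in control libraries on average, and Tbc1d5 (0.984). For Gpr174 they were Rassf2 (0.998), Arhgef3 (0.995) and Jak1 (0.994), and for P2ry10 Fam84b (0.997), Rsbn1l (0.996) and Dennd1b (0.994). S1pr4 was closest to Arhgef18 (0.995), Gps2 (0.991) and Pdlim7 (0.987), and Gna13 to Baz1a, Dgkd and Tut4 (0.986 each). The closest matches were weaker for Gpr18, with Aldh6a1 (0.956), Acaa1a (0.953) and Tnks1bp1 (0.952), and for S1pr2, with Osbpl11 (0.912), Ppp2r5b (0.902) and Dvl1 (0.900). Among the 9 themselves, r was over 0.8 for S1pr4 with Gpr174 (0.886), Gpr174 with Gna13 (0.932) and P2ry10 with Gna13 (0.910).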

How the data were processed

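RNA sequencing of 10 libraries in 5 groups of 2 was read from the deposited tables of each library. Per the file headers, the authors' tables give estimated counts per transcript, which are not normalized, and TPM, which the authors' quantifier computed from counts and effective lengths. Quantification used kallisto 0.44.0 and build mm10, per the submitters' processing notes; the transcript release and strandedness are not given in the sources used here. Of 88198 transcripts, 86031 were matched by identifier to GENCODE M21, and 2167 unmatched ones (1.09% to 1.38% of counts) were left out.

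Estimated counts were summed per gene, rounded, filtered with filterByExpr (minimum count 10, total 15) and fitted with edgeR 4.0.16 (R 4.3.3; TMM, robust quasi-likelihood, 1 model of 5 groups, 5 residual degrees of freedom, biological coefficient of variation 0.1205). Tests were two-sided. SE is the log2 fold change divided by the square root of F. The counting noise between the 2 libraries of a group was exceeded in each group (chi-square per degree of freedom 4.31 to 20.3), so no library was a copy of another.

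The 9 genes and the lists were chosen with earlier results of these data known. Named were the 9 genes, of each list the 3 genes with the smallest p per comparison plus 10 fixed genes, and per gene the 3 most alike; of these the text prints those that bear on the 9 and, chosen after their values were seen, Col1a2, Cd8b1, Cr2, Cd9, Nuggc and Gcsam. A few genes that this rule picks are not reported here. Alternatives used limma 3.58.1 and DESeq2 1.42.0 among 21 settings. Across 10 pairs of groups, deviations of same-numbered libraries correlated at -0.107 to 0.086 over 10376 genes, so no shared deviation by number was seen. This cannot show whether same-numbered libraries were prepared together. A replicate block was fitted as an alternative only.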

Additional observations from a re-analysis of the deposited data

Results flagged for a closer look

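The NIK and Notch2 alleles were compared for whether the change brought by both together equalled the sum of the changes seen with each alone (log2 scale, edgeR interaction term, a positive value where doubly activated cells were above that sum). It was called for 7 of the 9 genes, all positive, with 49.5% of all 15583 genes called. The term uses the NF-kB-activated, Notch-labelled, doubly activated and control libraries, of which the Notch-labelled ones stand apart as described above. The differences were 5.19 ± 0.181 for P2ry10 (adjusted p = 2.31e-09) and 4.35 ± 0.215 for Gpr174 (adjusted p = 3.8e-08). For S1pr4 the difference was 1.88 ± 0.360 (adjusted p = 0.00292). S1pr3 gave 1.29 ± 0.186 (adjusted p = 0.00016), Gna13 1.29 ± 0.137 (adjusted p = 1.08e-05), Gpr183 1.17 ± 0.180 (adjusted p = 0.000227) and S1pr1 1.01 ± 0.125 (adjusted p = 3.58e-05). For S1pr3 and Gpr183 the doubly activated level was above every single group and control in CPM. The Gpr183 difference from NF-kB-activated cells was not called. For Gpr174, P2ry10, S1pr4 and Gna13 the doubly activated level was below control and above the Notch-labelled level. For S1pr1 it was below control, not called, and overlapped the Notch-labelled libraries. For Gna13 the difference between doubly and NF-kB-activated cells was -0.001 ± 0.096, and the Notch-labelled change against control was -1.29 ± 0.098. The term was -0.69 for S1pr2 (adjusted p = 0.558) and -0.18 for Gpr18 (adjusted p = 0.693).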

How the results depend on the processing

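Of 50 called differences of the 9 genes, 41 kept their call and direction in every setting run (21, or 20 for results that need the Notch-labelled libraries), and of 22 that were not called 14 gained a call in some setting. With one library left out in turn, genes called ranged from 1435 to 2291 in NF-kB-activated against control cells (2388 with all; 1435 and 1497 without NF-kB-activated library 2 and 1), from 1624 to 3081 in doubly activated against control cells (3090; lowest without doubly activated library 2), and from 725 to 2800 in doubly against NF-kB-activated cells (2165; lowest without doubly activated library 2, 1067 and 975 without NF-kB-activated library 1 and 2), where called genes of the 9 ranged from 3 to 7 (4; 7 without either control). Fitting only the groups compared gave 1984 for doubly activated against control, and the length offset 1393 for doubly against NF-kB-activated. Gna13 reversed under the length offset against control (0.52) and against NF-kB-activated cells (0.84), and against NF-kB-activated cells, where it is near 0, also under RLE, DESeq2 and without receptor segments (0.005 each); its transcript shares differ as reported. S1pr1 in doubly activated against Notch-labelled cells became -0.12 with library size only. The S1pr4 rise in doubly activated against Notch-labelled cells (0.93) was lost with limma-voom and without either doubly activated library or Notch-labelled library 2. The cause of the other reversals was not tested.

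Leaving out single libraries also turned differences that were not called: S1pr2 in NF-kB-activated (-2.22 to 0.024), Notch-labelled (-0.16 to 1.91) and lymphoma cells (-1.27 to 0.82) against control, in doubly against NF-kB-activated cells (-0.68 to 0.67) and in the interaction (-2.07 to 0.17), Gpr18 in doubly activated against Notch-labelled cells (-0.086 to 0.60) and in the interaction (-0.55 to 0.14), Gpr174 in NF-kB-activated cells (-0.07 to 0.30) and Gna13 in doubly against NF-kB-activated cells (-0.11 to 0.10). With a replicate block, called genes of the 9 were 4, 8, 6 and 3 in NF-kB-activated, Notch-labelled and doubly activated against control and doubly against NF-kB-activated cells, 7 in doubly activated against Notch-labelled cells and in the interaction, 8 in lymphoma against doubly activated and 6 against control cells. No shared deviation of same-numbered libraries was seen. With library size only, the share of rises among called genes was 41.7% against 53.1% with TMM in doubly activated against control cells, 34% against 47.6% in doubly against NF-kB-activated cells and 38.1% against 48.3% in the interaction, and the median of all genes moved by 0.11 in Notch-labelled against control cells, -0.17 in doubly activated against Notch-labelled cells and -0.18 in the interaction (log2). S1pr2, at 14 to 127 counts per library, is limited by depth.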
